A study of Mus musculus with 12 samples.

Results

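The genes described here encode Wnt ligands, the cell-surface receptors that bind them and the secreted proteins that block them. Members were all gene symbols in the deposited table that name a numbered Wnt, Fzd, Sfrp or Dkk gene, together with *Lrp5*, *Lrp6*, *Wif1* and *Frzb*. *Dkk3* and symbols ending in "os", which name opposite-strand transcripts, were left out. This gave 40 genes of 33641 gene symbols, comprising 19 ligands, 10 Frizzled receptors, 2 co-receptors, 6 antagonists that bind Wnt proteins directly and 3 Dkk antagonists. A gene was tested where it reached at least 1 TPM (a transcript's share of a library's RNA molecules, corrected for its length and scaled to the same total in every library) in at least 3 of the 12 libraries. Of the 40 members, 19 passed this filter, among 13158 genes in all.

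Wnt proteins are lipid-modified secreted signals that bind a Frizzled receptor and, in the canonical branch, the co-receptors LRP5 or LRP6. Engaged receptors halt the destruction of β-catenin, which then enters the nucleus and acts with TCF/LEF factors, whereas other Wnt proteins act through Frizzled without β-catenin on cell polarity and calcium. Secreted Frizzled-related proteins (the Sfrp genes and *Frzb*) and WIF1 bind Wnt proteins outside the cell, and Dkk proteins block the co-receptors. The pathway is largely quiet in the adult heart and has long been studied in the healing of infarcts, where fibroblasts are a known source of Sfrp proteins.

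Messenger RNA was sequenced from the myocardium of 12 male C57BL/6 wild-type mice, 3 in each of 4 groups. All mice had surgery, either a sham operation or one producing a myocardial infarction (MI), and all received weekly intraperitoneal injections for 6 weeks beginning 2 weeks after surgery. The injections held vehicle or prednisone, a synthetic glucocorticoid, at 1 mg/kg and were given at lights-on, so the 4 groups were sham vehicle, sham prednisone, MI vehicle and MI prednisone. The mice were about 10 weeks old when treated and about 16 weeks old when tissue was taken, 24 h after the last injection. The labels name the tissue only as myocardium and give no position relative to the scar. Each library carries the number of its own mouse, so that p-values below measure the spread between these mice.

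The libraries differed in ways that bear on every value below. Because TPM carries no read number, depth is unknown and precision can be judged only from the spread between mice. Unless stated otherwise, SE and p come from a fit of all 12 libraries that gives each gene the same spread in all groups. The markers of cardiomyocytes were abundant in all libraries (8 of 8 detected, summing to between 22585 and 37855 TPM). MI vehicle replicate 3 stood apart, with 14307 genes at 1 TPM or more against 11690 to 12772 in the other libraries, and a median-ratio size factor (how far its typical gene lies above the common level) of 1.68 against 0.857 to 1.13. The 3 MI prednisone libraries stood apart in another way. In 1291 genes that have a shorter annotated transcript ending at the 3′ end but starting at least 40% of the gene's span further in, the shorter transcript took on average 35.3%, 35.8% and 24.2% of the TPM in MI prednisone replicates 1, 2 and 3, against 10.0% to 12.2% in the other 9 libraries. The part these differences play in the results was not tested, and counts of called genes are given below with and without MI vehicle replicate 3 and MI prednisone replicates 1 and 2.

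Low expression was the rule among the ligands. Only *Wnt2b*, *Wnt4*, *Wnt5a*, *Wnt5b*, *Wnt9a* and *Wnt11* passed the filter, and of these *Wnt11* had the highest mean over all libraries (4.52 TPM) and *Wnt5a* the next (3.39 TPM). The 21 members below the filter were *Wnt1*, *Wnt2*, *Wnt3*, *Wnt3a*, *Wnt6*, *Wnt7a*, *Wnt7b*, *Wnt8a*, *Wnt8b*, *Wnt9b*, *Wnt10a*, *Wnt10b*, *Wnt16*, *Fzd3*, *Fzd5*, *Fzd9*, *Fzd10*, *Sfrp4*, *Dkk1*, *Dkk2* and *Dkk4*. Of these, 17 did not reach 1 TPM in any library, and the highest single value was 1.60 TPM (*Sfrp4*, MI vehicle replicate 3). For 15 of the 21 (71.4%) the highest value lay in MI vehicle replicate 3, which held the highest value of 34.6% of all 10471 genes below the filter. All 3 Dkk genes were close to 0, with *Dkk2* at 0.294 TPM or less in all libraries, so that the secreted antagonists measured here were almost wholly of the kind that binds Wnt proteins.

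Summed by role, ligands held 14.8 ± 2.55 TPM in sham vehicle and 23.5 ± 8.91 TPM in MI vehicle, and Frizzled receptors 24.8 ± 2.96 and 40.7 ± 7.19 TPM (mean ± SD, n = 3 each here and below). The Wnt-binding antagonists went from 16.4 ± 3.27 to 79.0 ± 28.5 TPM. Their summed TPM stood at 1.11 ± 0.0510 times that of the ligands in sham vehicle and 1.04 ± 0.0950 times in sham prednisone. In MI vehicle the ratio was 2.45, 6.61 and 2.34 in the 3 mice, and in MI prednisone 3.72, 1.59 and 1.36. All 6 infarcted hearts thus lay above all 6 sham hearts in this ratio, while the 2 infarcted groups overlapped. *Sfrp2* alone supplied 15.2% ± 1.96 of the antagonist sum in sham vehicle and 54.2% ± 4.89 in MI vehicle.

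**Figure D1:**
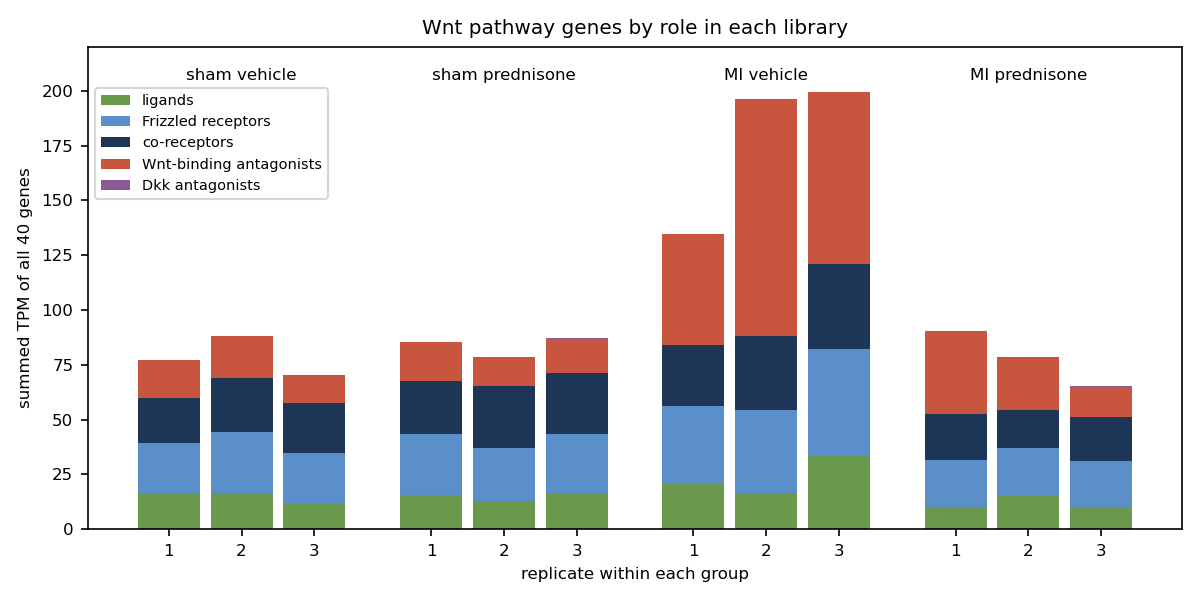
Summed TPM of all 40 genes in each of the 12 libraries (bars, replicates 1 to 3 of each group), stacked by role. The red segment of Wnt-binding antagonists reaches 50.8 to 107.8 TPM in MI vehicle and 12.8 to 37.7 TPM in the other libraries, and the Dkk segment is too small to see.

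Infarction was compared with sham surgery first without the drug. *Sfrp2*, *Frzb* and *Sfrp1*, which encode secreted antagonists, had the largest log2 changes among the called genes, with means 17.3-fold, 6.81-fold and 4.0-fold higher. The receptor genes *Fzd1*, *Fzd2* and *Fzd6* and the co-receptor gene *Lrp5* rose by 1.42-fold to 2.79-fold, and no ligand passed the test. In all, 7 of 19 members were called higher and 0 lower by limma at an adjusted p under 0.05, against 15.1% of all genes called higher and 0.904% called lower. The median member changed by 0.45 and the median gene by 0.39 on the log2(TPM + 1) scale. After median-ratio rescaling, which removes that shift, 4 members were called higher (*Sfrp2*, *Frzb*, *Sfrp1* and *Fzd1*) and 1 lower (*Wif1*). On that scale 427 of 13131 genes were called higher and 425 lower. Without MI vehicle replicate 3 the median gene changed by 0.19 and the median member by 0.32. In that fit 5 members were called (*Sfrp2*, *Frzb*, *Sfrp1*, *Fzd1* and *Lrp5*), where 914 of 13158 genes were called higher and 52 lower. With only these 6 libraries in the fit 0 members passed, where 2 of 13158 genes did.

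Among the ligands, *Wnt11*, which signals without β-catenin and guides cell movement in heart development, was at 3.59, 4.15 and 3.34 TPM in sham vehicle and 5.32, 4.73 and 8.88 TPM in MI vehicle (log2 change 0.60 with SE 0.25, adjusted p = 0.0956 by limma). The groups did not overlap, but the highest mouse supplied much of the difference. *Wnt5a*, another ligand of the β-catenin-independent branch, overlapped between the groups, at 5.12, 4.27 and 2.67 TPM in sham and 4.37, 3.63 and 4.72 TPM in MI. The log2 changes of the other 4 tested ligands lay between 0.27 (*Wnt5b*) and 0.83 (*Wnt4*), and none was called. *Wnt4* stayed at or below 0.462 TPM in the sham vehicle hearts and was at 1.14, 0.55 and 2.78 TPM in MI vehicle. Its mean was 4.66-fold higher. *Wnt4* reached 1 TPM in only 3 libraries, all infarcted, so it passed the filter through the hearts where it is high. Over 16 alternatives its log2 change ranged from 0.41 to 1.79. It was called in 1 of them, without MI vehicle replicate 2, its lowest MI vehicle heart (log2 change 1.12, limma adjusted p = 0.0490).

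Of the receptors, *Fzd1* (chromosome 5, 4753839 to 4758035, minus strand, GRCm38) showed the clearest rise. It was at 2.62, 3.22 and 2.11 TPM in sham vehicle and 6.38, 7.16 and 8.64 TPM in MI vehicle (log2 change 1.2 with SE 0.15, adjusted p = 0.00505 by limma). The lowest infarcted heart stood well above the highest sham heart. *Fzd2* was at 1.35, 1.92 and 1.24 TPM in sham and 2.91, 3.96 and 4.25 TPM in MI (log2 change 0.91 with SE 0.23, adjusted p = 0.0305 by limma). *Fzd6*, at 4.58, 5.00 and 4.60 against 6.34, 6.59 and 7.25 TPM, rose by less (log2 change 0.43 with SE 0.12, adjusted p = 0.0393 by limma), close to the median of all genes. *Lrp5* went from 10.9, 12.03 and 11.4 TPM to 15.8, 19.6 and 21.8 TPM (log2 change 0.68 with SE 0.14, adjusted p = 0.0155 by limma). None of these 4 receptor genes had overlapping groups, but neither did *Wnt5b*, *Wnt9a* and *Wif1*, among others that were not called. The share of all genes without overlap was not computed. *Fzd2*, *Fzd6* and *Lrp5* lost the call after rescaling, and all 3 lost it without sham vehicle replicate 1 and without sham vehicle replicate 3. *Fzd2* and *Fzd6* lost it also without MI vehicle replicate 2 and without MI vehicle replicate 3, and *Fzd6* without sham vehicle replicate 2 (limma adjusted p up to 0.119, 0.141 and 0.0755 for *Fzd2*, *Fzd6* and *Lrp5*). *Fzd4*, the most abundant Frizzled gene and known for its part in vessel growth, was at 9.42, 11.3 and 9.63 TPM in sham and 12.8, 12.7 and 17.5 TPM in MI, and just missed the call (log2 change 0.45, adjusted p = 0.0527 by limma). *Fzd7*, *Fzd8* and *Lrp6* were not called either (log2 changes 0.54, 0.26 and 0.35), and *Lrp6* changed sign after rescaling. Without MI vehicle replicate 1, *Fzd4*, *Fzd7* and *Lrp6* were called (limma adjusted p = 0.0262, 0.0483 and 0.0390).

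Among the antagonists 3 were called and 2 were not. *Sfrp2* (chromosome 3, 83766321 to 83774316, plus strand) was at 2.50, 3.33 and 1.77 TPM in sham vehicle and 25.2, 64.0 and 42.0 TPM in MI vehicle (log2 change 3.59 with SE 0.47, adjusted p = 0.00505 by limma). Each infarcted heart held at least 7 times the level of any sham heart. *Frzb* (chromosome 2, 80411970 to 80447625, minus strand), which encodes SFRP3, was at 1.34, 1.35 and 2.27 TPM in sham and 6.19, 15.5 and 12.1 TPM in MI (log2 change 2.14 with SE 0.30, adjusted p = 0.00526 by limma). *Sfrp1* (chromosome 8, 23411502 to 23449632, plus strand) was at 4.76, 5.38 and 3.67 TPM in sham and 13.0, 24.9 and 17.4 TPM in MI (log2 change 1.76 with SE 0.27, adjusted p = 0.00668 by limma). These 3 genes shared one order among the infarcted hearts, with replicate 2 highest and replicate 1 lowest, whereas replicate 3 was the highest MI vehicle library for 15 of the 19 tested members, as in the genes below the filter. They were called without any one of the 6 libraries (largest limma adjusted p = 0.0419).

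*Sfrp5* and *Wif1* were not called. *Sfrp5*, a close relative of *Sfrp1*, was at 5.56, 5.69 and 1.96 TPM in sham vehicle and 2.74, 0.63 and 2.67 TPM in MI vehicle (log2 change -0.84 with SE 0.35, adjusted p = 0.0987 by limma), and the groups overlapped. The lowest mouse of each group, sham vehicle replicate 3 and MI vehicle replicate 2, was also the lowest of its group in summed adipocyte markers (18.9 TPM against 254.1 and 362.1, and 16.8 TPM against 668.4 and 1560 TPM) and in epicardial markers (30.04 and 86.8 TPM). All 6 markers of each list were in the table and none was at 0 in all libraries. Their part in the *Sfrp5* values was not tested. *Wif1* was at 2.90, 3.02 and 3.05 TPM in sham and 2.43, 2.41 and 2.44 TPM in MI, without overlap but with a small difference (log2 change -0.22 with SE 0.14, adjusted p = 0.229 by limma). After rescaling its log2 change was -0.54 and it was called lower (limma adjusted p = 0.0497).

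**Figure D2:**
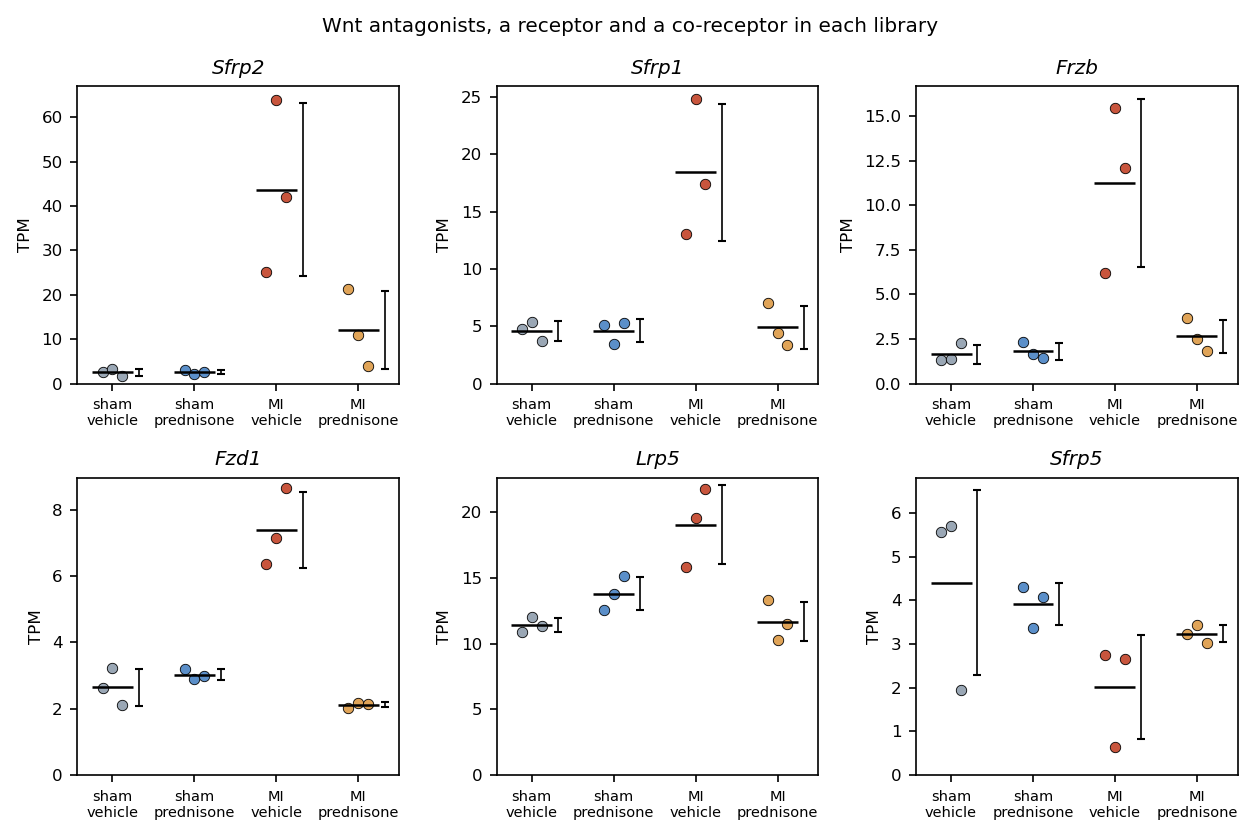
TPM of 6 genes in each library (points), with the group mean (line) and SD (bar at the right, n = 3). *Sfrp2*, *Sfrp1*, *Frzb*, *Fzd1* and *Lrp5* are highest in MI vehicle, and of the infarcted prednisone hearts only *Sfrp2* stays above all sham hearts, while *Sfrp5* is lowest in an MI vehicle heart at 0.63 TPM.

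The sequences just upstream of 2 Sfrp genes are shown because *Sfrp2* had the largest rise after infarction, while *Sfrp5*, of the same family, was not called. The 250 bases before each RefSeq start site (GRCm38.p6) are written 5′ to 3′ on the strand of the gene, *Sfrp2* from chr3:83766071-83766320 (plus strand) and *Sfrp5* from chr19:42202253-42202502 (minus strand). Capitals mark CG dinucleotides, the targets of DNA methylation.
Sfrp2: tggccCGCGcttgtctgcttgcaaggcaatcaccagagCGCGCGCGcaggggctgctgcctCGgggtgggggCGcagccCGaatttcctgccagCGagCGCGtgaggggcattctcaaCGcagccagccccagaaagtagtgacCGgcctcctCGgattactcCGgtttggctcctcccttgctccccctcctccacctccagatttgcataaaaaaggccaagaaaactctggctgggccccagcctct
Sfrp5: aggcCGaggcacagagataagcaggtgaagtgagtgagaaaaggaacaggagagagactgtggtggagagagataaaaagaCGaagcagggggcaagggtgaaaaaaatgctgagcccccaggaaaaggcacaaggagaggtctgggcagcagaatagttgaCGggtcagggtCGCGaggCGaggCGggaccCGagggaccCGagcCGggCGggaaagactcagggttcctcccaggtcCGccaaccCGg

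The *Sfrp2* window holds 16 CG dinucleotides and 63.6% G and C, and the *Sfrp5* window 13 and 59.6%. In *Sfrp2* the CG dinucleotides lie in the upstream part of the window and leave the bases next to the start free, whereas in *Sfrp5* most lie next to the start. Over 32851 RefSeq promoter windows the medians were 6 CG dinucleotides and 52.4% G and C, and 74.6% of the windows held fewer CG dinucleotides than *Sfrp2*. Both strands were searched for the TCF/LEF core motifs CTTTGAT (in 3.21% of all windows) and CTTTGTT (5.03%), the glucocorticoid receptor half-site AGAACA (16.1%) and the TATA box TATAAA (12.4%). None of the 4 motifs was in either window printed here. Among the 12 tested members with a window in the table, CTTTGAT was found in windows of *Wnt11* and *Wnt5b*, CTTTGTT in *Fzd7*, AGAACA in *Wnt5b*, and TATAAA in *Fzd1*, *Wif1* and *Wnt11*. A match is a run of letters and says nothing of binding.

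In bulk tissue, fewer cells of a type and less RNA per cell cannot be told apart, and infarction changed the cell markers too. Fibroblast markers summed to between 895.7 and 1145 TPM in sham vehicle and between 1605 and 1813 TPM in MI vehicle, with 7 of 8 called higher, or 2 of 8 after rescaling. Markers of activated fibroblasts and scar (*Postn*, *Cthrc1*, *Comp*, *Cilp*, *Fap*, *Meox1*, *Thbs4* and *Chad*) went from between 28.4 and 38.7 TPM to 145.7, 376.1 and 236.7 TPM, with 6 of 8 called higher on either scale and the same order of mice as *Sfrp2*, *Frzb* and *Sfrp1*. Macrophage markers went from between 276.5 and 393.5 TPM to between 614.1 and 1341 TPM, with 7 of 8 called higher, or 3 of 8 after rescaling. Without MI vehicle replicate 3 the counts were 5, 6 and 5 of 8. Of the cardiomyocyte markers 3 of 8 were called lower, or 1 of 8 without MI vehicle replicate 3. Among all genes 15.1% were called higher and 0.904% lower before rescaling, and 427 and 425 of 13131 after it. No marker of these lists was at 0 in all libraries. The part of these cells in the rise of the antagonists was not tested.

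The same contrast within prednisone-treated mice gave 1 member called higher, *Sfrp2*, and 1 called lower, *Lrp6*, of 19, against 2.73% and 14.1% of all genes. The median member changed by -0.21 and the median gene by -0.06. *Sfrp2* was at 3.07, 2.18 and 2.49 TPM in sham prednisone and 21.3, 10.9 and 4.0 TPM in MI prednisone, a 4.67-fold difference of means (log2 change 1.62 with SE 0.47, adjusted p = 0.0361 by limma). The infarcted hearts differed by over 5 times among themselves, in the order of their summed scar markers (185.9, 124.4 and 74.2 TPM). The call was lost without any one of 5 of the 6 libraries (limma adjusted p up to 0.130), the exception being MI prednisone replicate 3. *Lrp6* fell from 11.8, 14.7 and 12.7 TPM to 7.85, 7.04 and 8.4 TPM (log2 change -0.68 with SE 0.15, adjusted p = 0.0120 by limma). That call was lost after the length correction, which removes the part of each library's deviation that follows transcript length. It was lost also without replicate 2 of either group (limma adjusted p up to 0.0596 in these 2 fits). Over 17 alternatives the log2 change of *Lrp6* ranged from -0.90 to -0.28.

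*Frzb* and *Sfrp1*, by contrast, were not called in infarcted prednisone hearts. *Frzb* was at 2.35, 1.64 and 1.45 TPM in sham prednisone and 3.66, 2.47 and 1.82 TPM in MI prednisone (log2 change 0.36 with SE 0.30, adjusted p = 0.459 by limma). *Sfrp1* was at 5.11, 3.45 and 5.29 TPM and 7.01, 4.37 and 3.35 TPM (log2 change 0.04 with SE 0.27, adjusted p = 0.940 by limma). Both pairs of groups overlapped. *Fzd1*, at 3.21, 2.89 and 2.98 against 2.03, 2.17 and 2.15 TPM, lay lower in every infarcted heart but was not called (log2 change -0.37 with SE 0.15, adjusted p = 0.125 by limma).

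**Figure D3:**
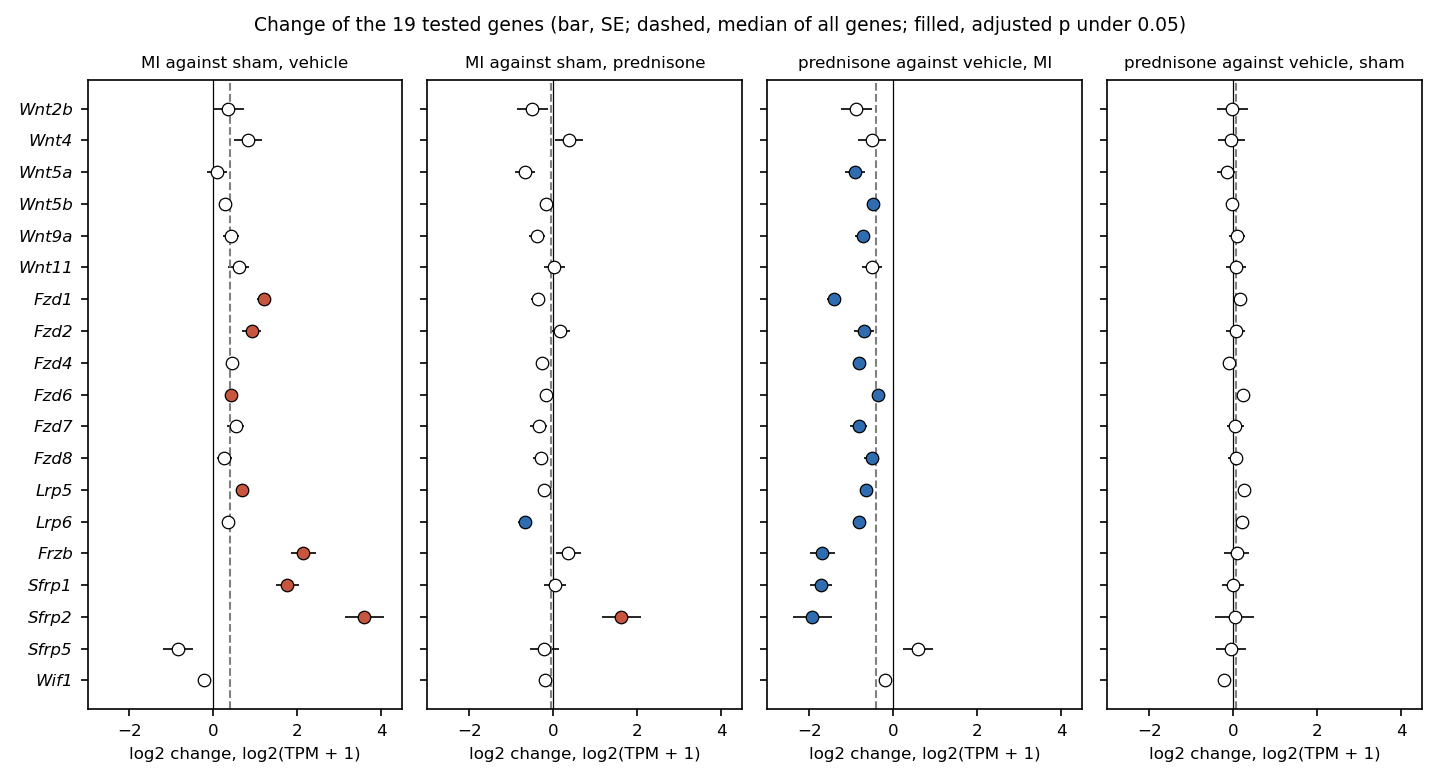
Log2 change of the 19 tested genes in 4 comparisons (points, with SE as bars), filled where limma's adjusted p was under 0.05, and the median of all genes (dashed line). The 3 antagonist genes lead the rises in the first panel and the falls in the third, and the 3 smallest filled falls of the third panel, *Fzd6*, *Wnt5b* and *Fzd8*, lie close to the dashed line, with *Fzd6* changing sign to 0.02 after rescaling.

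Prednisone against vehicle within infarcted hearts asked what treatment changed after MI, and it uses the same MI vehicle libraries as the comparison of infarction without the drug, so the 2 are not independent. *Sfrp2*, *Sfrp1*, *Frzb* and *Fzd1* had the largest log2 falls among the called genes, with means 3.49 to 4.25 times higher in vehicle than in prednisone. All told, 14 of 19 members were called lower and 0 higher, against 34.9% of all genes called lower and 2.5% called higher. The median member changed by -0.73 and the median gene by -0.41. The 5 members not called were *Wnt2b*, *Wnt4*, *Wnt11*, *Sfrp5* and *Wif1*. After median-ratio rescaling 6 members were called lower (*Sfrp2*, *Sfrp1*, *Frzb*, *Fzd1*, *Fzd4* and *Fzd7*), where 1813 of 13131 genes were. The length correction left 4 (*Sfrp2*, *Sfrp1*, *Frzb* and *Fzd1*), where 915 of 11902 genes were called lower. Centring of the libraries on genes of known length gave 7 lower and 1 higher (*Sfrp5*, limma adjusted p = 0.0478). Of 11902 genes, 1633 were then called lower and 1610 higher. Without MI vehicle replicate 3, 12 were called lower, with *Fzd2* and *Fzd8* lost, and the median gene changed by -0.22. That fit called 3686 of 13158 genes lower.

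*Sfrp2* fell to 21.3, 10.9 and 4.0 TPM from the vehicle values given above (log2 change -1.93 with SE 0.47, adjusted p = 0.00908 by limma). *Sfrp1* was at 7.01, 4.37 and 3.35 TPM in the treated hearts (log2 change -1.72 with SE 0.27, adjusted p = 0.00152 by limma), with 1 treated heart above, 1 within and 1 below the range of the sham hearts. *Frzb* was at 3.66, 2.47 and 1.82 TPM (log2 change -1.70 with SE 0.30, adjusted p = 0.00237 by limma). None of the 3 overlapped between the infarcted groups, but neither did *Sfrp5* and *Wif1*, which were not called. Within MI prednisone *Sfrp2*, *Sfrp1* and *Frzb* again shared one order of mice, replicate 1 highest and replicate 3 lowest. *Fzd1* showed little spread, at 2.03, 2.17 and 2.15 TPM in treated hearts (log2 change -1.42 with SE 0.15, adjusted p = 0.000471 by limma). The calls of *Sfrp1*, *Frzb* and *Fzd1* held under all 17 alternatives run, and that of *Sfrp2* under all but the fit of only these 6 libraries (limma adjusted p = 0.0727).

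The 3′ shares were raised in all 3 MI prednisone libraries, so they cannot be told apart from treatment. Their part in these falls was not tested. MI prednisone replicate 3 had the lowest 3′ share of its group, but still 24.2% against 10.0% to 12.2% in the other groups. It held the lowest *Sfrp2*, *Sfrp1* and *Frzb* values of its group and also the lowest sum of scar markers (74.2 TPM). With that library as the only MI prednisone sample, which gives no spread of its own, the log2 changes were -3.07 (*Sfrp2*), -2.11 (*Sfrp1*), -2.04 (*Frzb*) and -1.41 (*Fzd1*). Transcript length moved with the change as well, since the median log2 change of all genes with prednisone in MI was -0.26 for genes of 1000 to 2000 bases, -0.47 for those of 2000 to 4000 and -0.67 for those of 4000 to 8000. Tested members had a median length of 3491 bases, against 2237 for all tested genes, and in the same bins their medians were -0.51 (3 genes), -0.73 (7 genes) and -0.81 (8 genes).

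The other receptors fell by less. *Fzd4* was at 7.07, 7.45 and 8.37 TPM in MI prednisone (log2 change -0.82 with SE 0.14, adjusted p = 0.00230 by limma), below every sham heart. *Fzd7* was at 3.32, 3.06 and 5.62 TPM in MI vehicle and 1.91, 1.74 and 1.61 TPM in MI prednisone (log2 change -0.83 with SE 0.20, adjusted p = 0.0101 by limma). *Lrp6*, at 12.2, 14.2 and 17.0 against 7.85, 7.04 and 8.4 TPM, fell by 0.81 on the log2 scale (SE 0.15, limma adjusted p = 0.00314), and all 3 treated values lay below every other library. *Lrp5* went to 13.3, 10.3 and 11.5 TPM, which overlapped the sham values (log2 change -0.66 with SE 0.14, adjusted p = 0.00520 by limma). *Fzd2*, at 2.80, 1.72 and 1.31 TPM, *Fzd8*, at 1.76, 2.42 and 2.67 against 1.05, 1.52 and 1.34 TPM, and *Fzd6*, at 4.88, 5.53 and 4.54 TPM, had log2 changes of -0.70, -0.51 and -0.37 (limma adjusted p = 0.0375, 0.0445 and 0.0337). These 3 calls depended on single libraries, being lost without 4, 5 and 3 of the 6 in turn (limma adjusted p up to 0.128, 0.144 and 0.0972). The rescaled change of *Fzd6* was 0.02 and its length-corrected change 0.24, so its direction depended on the scaling.

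Among the ligands, *Wnt5a* was at 4.37, 3.63 and 4.72 TPM in MI vehicle and 1.21, 1.60 and 2.67 TPM in MI prednisone (log2 change -0.92 with SE 0.24, adjusted p = 0.0138 by limma). It had not been called after infarction, and its treated values were at or below the lowest of the sham hearts. *Wnt9a*, a ligand of the canonical branch, went from 3.77, 3.04 and 4.67 TPM to 2.20, 1.75 and 1.73 TPM (log2 change -0.73 with SE 0.18, adjusted p = 0.0114 by limma). *Wnt5b* went from 2.36, 1.90 and 2.72 TPM to 1.5, 1.17 and 1.44 TPM (log2 change -0.49 with SE 0.15, adjusted p = 0.0245 by limma). None of these ligand calls remained after rescaling or the length correction, and *Wnt5a* and *Wnt5b* were lost without MI prednisone replicate 1 and replicate 2 respectively (limma adjusted p = 0.0587 and 0.0781). *Wnt11* was at 3.22, 6.22 and 3.08 TPM in MI prednisone and overlapped MI vehicle (log2 change -0.51, adjusted p = 0.123 by limma). Without MI prednisone replicate 2 its log2 change was -0.78 and it was called (limma adjusted p = 0.0311). *Wnt2b* ranged from 0.21 to 2.97 TPM in MI vehicle and from 0.20 to 0.37 TPM in MI prednisone, its lowest vehicle value being in the mouse with the lowest *Sfrp5* (log2 change -0.88, adjusted p = 0.0785 by limma). Its mean was 5.70 times higher in vehicle. *Wnt2b* reached 1 TPM in only 4 libraries, all of vehicle hearts, so it passed the filter through that treatment. Over 17 alternatives its log2 change ranged from -1.66 to -0.34. It was called in 1 of them, without MI vehicle replicate 2, that mouse of lowest *Sfrp5* (log2 change -1.36, limma adjusted p = 0.00596).

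**Figure D4:**
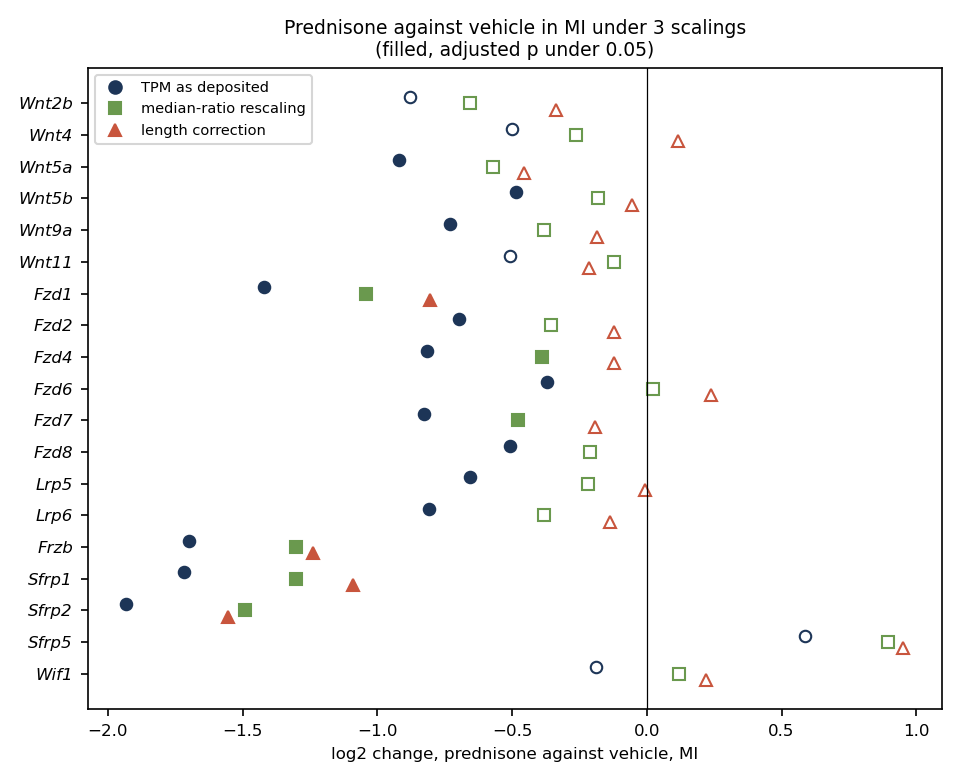
Log2 change with prednisone in MI of the 19 tested genes on 3 scales, filled where limma's adjusted p was under 0.05 (*Fzd8* has no annotated length and no length-corrected point). *Frzb*, *Sfrp1*, *Sfrp2* and *Fzd1* are filled on all 3 scales, and *Fzd6*, *Wif1* and *Wnt4* have points on both sides of 0.

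Cell markers differed between the infarcted groups too. Of the fibroblast markers, 6 of 8 were called lower with prednisone in MI, and their sum lay between 745.9 and 1224 TPM in MI prednisone, overlapping sham. Of the scar markers 4 of 8 were called lower, and their sum stayed above all sham hearts. Macrophage markers were called lower in 6 of 8, to between 306.6 and 558.2 TPM, and epicardial markers in 5 of 6, from between 86.8 and 170.1 TPM to between 25.03 and 81.2 TPM. After rescaling 5 of 8 fibroblast, 2 of 8 scar, 3 of 8 macrophage and 5 of 6 epicardial markers were called lower. Of all genes 34.9% were called lower and 2.5% higher before rescaling. After it, 1813 of 13131 were called lower and 1888 higher. Cardiomyocyte markers leaned the other way, with 3 of 8 called higher, or 4 of 8 after rescaling, and a median log2 change of 0.32. Without MI vehicle replicate 3, however, 2 of them were called higher and 2 lower, and the median was 0.18. Atrial markers were called higher in 3 of 6, their sum going from between 2836 and 4161 TPM to between 4387 and 6224 TPM. MI prednisone replicate 3 held the lowest sums of its group for fibroblast (745.9 TPM), scar (74.2 TPM), macrophage (306.6 TPM) and epicardial markers (25.03 TPM). The part of these changes in the falls of the Wnt genes was not tested.

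In *Lrp5*, the summed change hid opposite changes of single transcripts. The full-length protein-coding transcript (ENSMUST00000025856.16, 5161 bases) was at 14.0, 18.5 and 20.3 TPM in MI vehicle and 4.87, 4.32 and 7.68 TPM in MI prednisone (log2 change -1.51 with SE 0.19, adjusted p = 0.000395 by limma). A transcript annotated as a target of nonsense-mediated decay (ENSMUST00000177294.1, 2835 bases), which starts 70772 bases into the gene and ends 8 bases before its 3′ end, went from 1.72, 0.964 and 1.2 TPM to 8.29, 5.79 and 3.75 TPM (log2 change 1.56 with SE 0.32, adjusted p = 0.00452 by limma). Neither pair of groups overlapped. Of 27769 transcripts tested alike, 5.92% were called higher and 27.1% lower in this comparison. The rise of the 3′ share of *Lrp5* from MI vehicle to MI prednisone, 43.9 percentage points, was larger than that of 81.8% of the 1291 genes with such a pair.

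In *Wif1* the most abundant transcript was called, while the gene sum was not. This protein-coding transcript (ENSMUST00000020439.10) fell from 2.36, 2.41 and 1.73 TPM to 0.451, 0.485 and 1.53 TPM (log2 change -0.84 with SE 0.25, adjusted p = 0.0259 by limma). Another protein-coding transcript (ENSMUST00000175867.1) was at 0.603 TPM in MI prednisone replicate 2 and at 0 in all other libraries. With it added to the most abundant transcript, the coding RNA of each MI prednisone heart lay below that of every MI vehicle heart. The fall of this sum was smaller than that of the most abundant transcript and was not tested. A transcript with a retained intron that ends 13 bases before the 3′ end (ENSMUST00000145691.1) took 79.6% and 53.7% of the gene's TPM in MI prednisone replicates 1 and 2 and 0.27% in replicate 3, and its difference was not called (log2 change 0.59, limma adjusted p = 0.299). In *Lrp6* the full-length transcript (ENSMUST00000032322.14, 9368 bases) fell from 7.56, 7.54 and 10.9 TPM to 3.17, 3.36 and 3.77 TPM (log2 change -1.11 with SE 0.16, adjusted p = 0.000895 by limma). A retained-intron transcript of *Lrp6* from the middle of the gene (ENSMUST00000203235.1, 941 bases) stayed at 3.53, 5.26 and 3.50 against 4.24, 3.68 and 4.46 TPM (log2 change 0.02, adjusted p = 0.938 by limma). *Fzd1* and *Sfrp1* have a single transcript each in the table, so no such division could be made.

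**Figure D5:**
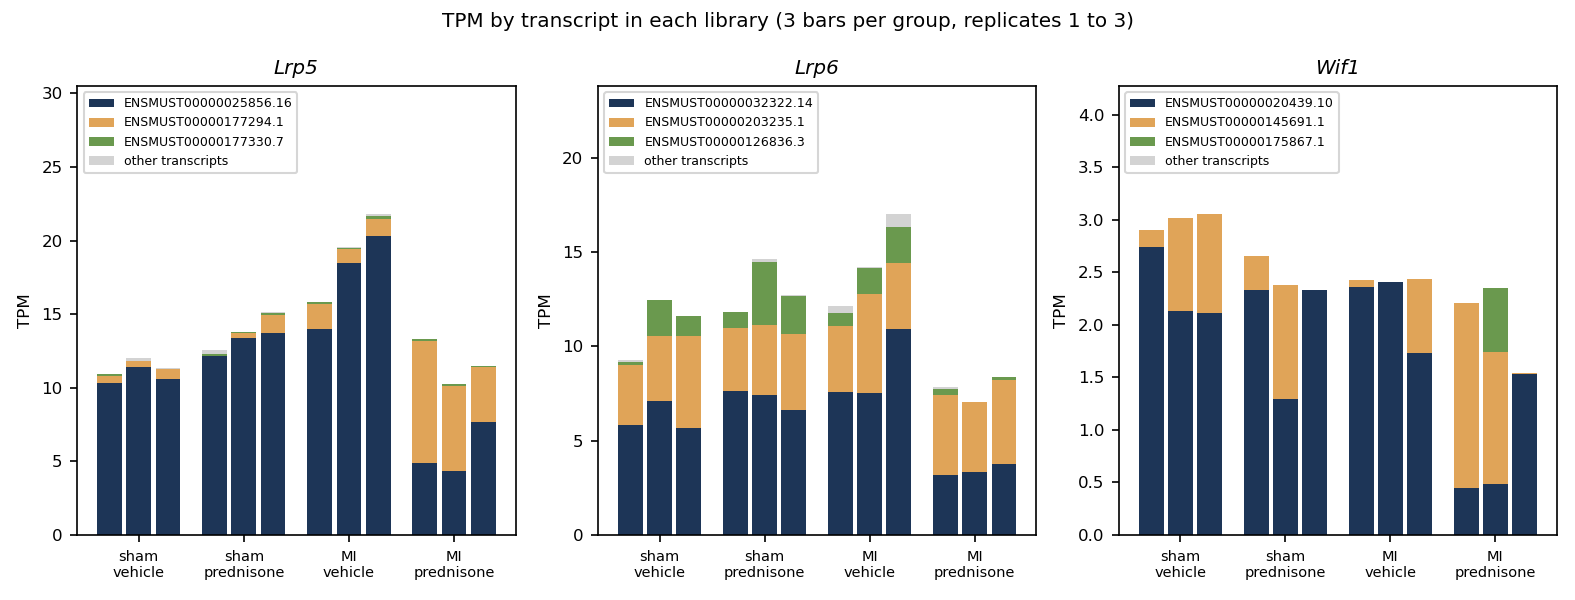
TPM of the transcripts of *Lrp5*, *Lrp6* and *Wif1* in each library, stacked (3 bars per group). In MI prednisone the orange *Lrp5* segment, a transcript of the 3′ part of the gene, takes 62.4%, 56.4% and 32.6% of the bar, against 4.93% to 10.9% in MI vehicle.

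In sham hearts prednisone changed none of these genes detectably. By limma 0 of 19 members were called, 0 also had an unadjusted p under 0.05, and the alternatives called 0 as well, where 0.0532% of all genes were called higher and 0.0608% lower. The median member changed by 0.05 and the median gene by 0.07. The largest change was that of *Lrp5*, from 10.9, 12.03 and 11.4 to 12.6, 13.8 and 15.1 TPM, without overlap (log2 change 0.25 with SE 0.14, adjusted p = 1 by limma). *Fzd6* likewise did not overlap, its sham prednisone values being 6.01, 5.13 and 5.99 TPM (log2 change 0.23 with SE 0.12, adjusted p = 1 by limma). *Wif1*, at 2.65, 2.38 and 2.33 TPM under prednisone, lay below all sham vehicle hearts (log2 change -0.21, adjusted p = 1 by limma). *Fzd4* was at 9.87, 9.73 and 8.53 TPM, *Fzd2* at 1.71, 1.01 and 2.18 TPM and *Fzd7* at 2.68, 1.97 and 2.90 TPM under prednisone, each overlapping the sham vehicle values. *Fzd8* and the ligands *Wnt5a*, *Wnt5b*, *Wnt9a* and *Wnt11* overlapped likewise. No exact permutation p was computed for single genes, since 3 mice against 3 allow none under 0.1.

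Whether prednisone acted differently in infarcted and sham hearts was tested as the interaction of both factors. By limma 8 of 19 members were called with a more negative prednisone effect in MI and 0 with a more positive one, against 20.7% and 0.54% of all genes. The median member stood at -0.76 and the median gene at -0.48. *Frzb*, *Sfrp1* and *Fzd1* had the largest differences (log2 difference -1.79, -1.72 and -1.57, limma adjusted p = 0.0167, 0.0139 and 0.00526), and that of *Sfrp2* was larger still but not called (-1.97, SE 0.66, limma adjusted p = 0.0540). The calls of *Lrp6*, *Lrp5*, *Wnt9a*, *Fzd4* and *Fzd6* lay between -1.03 and -0.60. *Fzd1* alone was called after rescaling, after the length correction and with centring, and 0 members were called with MI prednisone replicate 3 as the only treated infarcted library (*Fzd1*, limma adjusted p = 0.0586).

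Genes that act elsewhere in the pathway were described from 4 lists, of which 58 genes were tested. After MI in vehicle 15 were called higher and 0 lower, in MI against sham under prednisone 0 and 12, with prednisone in MI 1 and 34, in sham 0 and 0, and in the interaction 0 and 20. In the same order, the shares of all genes called higher were 15.1%, 2.73%, 2.5%, 0.0532% and 0.54%. Those called lower were 0.904%, 14.1%, 34.9%, 0.0608% and 20.7%. After rescaling the pathway counts became 4 and 1, 1 and 12, 3 and 14, 0 and 0, and 0 and 5. Of 13131 genes on that scale, 427 and 425, 1414 and 1920, 1888 and 1813, 7 and 9, and 566 and 579 were called. Without MI vehicle replicate 3 the pathway counts were 9 and 0 after MI in vehicle, 1 and 25 with prednisone in MI, and 0 and 21 in the interaction. Of 13158 genes, 914 and 52, 477 and 3686, and 115 and 2978 were called there. With MI prednisone replicate 3 as the only treated infarcted library, 0 were called in MI against sham under prednisone and in the interaction. In that fit 1 gene, *Wls*, was called lower with prednisone in MI, where 2.41% of all genes were called in either direction. The medians of the 58 pathway genes were 0.42, -0.24, -0.64, 0.12 and -0.72 on the log2 scale. They are to be read beside medians of all genes of 0.39, -0.06, -0.41, 0.07 and -0.48.

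Among the called genes the largest rises after infarction were in *Cthrc1*, a secreted Wnt modulator that is also one of the scar markers, at 0.42 TPM in sham vehicle and 5.70 TPM in MI vehicle (log2 change 1.99, adjusted p = 0.0155 by limma), in *Cd44*, a cell adhesion receptor and β-catenin target (1.43, limma adjusted p = 0.0110), and in *Sost*, a secreted inhibitor of LRP5 and LRP6 best known from bone (1.39, limma adjusted p = 0.0149). *Nkd2* and *Tle3*, a target gene that dampens the pathway and a co-repressor of TCF, rose by 1.21 and 1.2 on the log2 scale, and *Ptk7*, *Pygo2* and *Vangl1* by 0.88, 0.69 and 0.68. Without MI vehicle replicate 3, *Tle3* and *Ptk7* were not called (limma adjusted p = 0.0536 and 0.0518), nor was *Ccnd1* (0.0972). Of the 11 tested β-catenin target genes 3 were called higher (2 after rescaling) and 0 lower, beside 15.1% of all genes called higher, namely *Nkd2*, *Cd44* and the cyclin gene *Ccnd1* (0.64). *Axin2*, the target most often read as a sign of β-catenin activity, was at 1.57 TPM in sham vehicle and 3.08 TPM in MI vehicle and was not called (log2 change 0.45, adjusted p = 0.352 by limma), and its change without MI vehicle replicate 3 was -0.04. *Axin2* and *Ccnd1* were named after their values were seen.

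With prednisone in MI the largest falls among the called genes were in *Cthrc1* (-1.67), in the β-catenin destruction genes *Gsk3b* (-1.39), *Apc* (-1.36) and *Csnk1a1* (-1.15), in the co-activator *Bcl9l* (-1.33), in the Wnt signal carrier *Dvl3* (-1.24), in the target *Apcdd1* (-1.25) and in *Wls* (-1.27), whose protein carries Wnt ligands to the cell surface. *Wls* had means of 22.2, 24.1, 36.2 and 14.2 TPM in sham vehicle, sham prednisone, MI vehicle and MI prednisone, and its fall remained called after rescaling (-0.82, limma adjusted p = 0.000563) and after the length correction (-0.81, limma adjusted p = 0.000283). By list, 3 of 6 genes for making and releasing Wnt proteins, 7 of 11 other receptors and modulators, 18 of 32 transducers and 6 of 11 target genes were called lower, against 34.9% of all genes. After rescaling these counts were 2, 3, 7 and 2, where 1813 of 13131 genes were called lower, and 3 transducers were called higher. With the length correction 1 of 6, 1 of 10, 5 of 28 and 1 of 9 were called lower, and 4 transducers higher. Of 11902 genes, 915 were then called lower and 1043 higher. The falls named here other than that of *Wls* are given before rescaling only. *Tle2*, another co-repressor, was the 1 gene called higher before rescaling (0.75, limma adjusted p = 0.0329). *Ctnnb1*, which encodes β-catenin itself and like *Tle2* was named after its values were seen, was at 135.3 and 119.8 TPM in the infarcted groups and was not called (log2 change -0.17, adjusted p = 0.288 by limma).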

How the data were processed

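Stranded mRNA libraries from 12 mouse hearts were analysed, grouped by the sample titles. The authors deposited 1 table of TPM values for 105129 transcripts, each library summing to the same total. Per the submitters' processing notes the tools included Trimmomatic, HISAT2 and kallisto and the build was mm10, while their versions, their roles and the annotation release are not given in the sources used here. Depth is unknown, so no counting error could be given.

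Transcripts were summed to gene symbols with pandas 2.3.3. Genes at 1 TPM or more in at least 3 libraries were fitted as log2(TPM + 1) with limma 3.58.1 in R 4.3.3 (1 mean per group, all 12 libraries, a variance trend), with Benjamini-Hochberg adjustment over all 13158 genes and calls at an adjusted p under 0.05. A log2 change on this scale understates the change of low genes. Single transcripts were fitted alike. The scripts were tested on simulated data. Lengths and coordinates came from GENCODE M21, which covers 11902 tested genes, and promoter windows from RefSeq.

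Alternatives were rescaling by median ratios, no filter, a pseudocount of 0.1, no variance trend, fitting only the groups compared, a replicate block, a length correction, the most abundant transcript and leaving out each library. Centring on genes with a length, leaving out MI prednisone replicates 1 and 2 and the 3′ share were chosen after seeing the data. The members, the pathway and marker lists and the tests were chosen with earlier results of these data known. Every tested member is named, with full values for those called in any comparison and for the 2 most abundant of each role, and at most 8 called pathway genes per comparison are named by size of change. Adjusted p-values come from limma throughout.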

Additional observations from a re-analysis of the deposited data

Results flagged for a closer look

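For 8 genes the effect of prednisone in infarcted hearts differed from that in sham hearts by a test of the difference itself, limma's interaction term. The log2 difference was -1.79 for *Frzb*, -1.72 for *Sfrp1*, -1.57 for *Fzd1*, -1.03 for *Lrp6*, -0.907 for *Lrp5*, -0.815 for *Wnt9a*, -0.717 for *Fzd4* and -0.597 for *Fzd6*, with adjusted p between 0.00526 and 0.0470. A negative value means a lower level with prednisone relative to vehicle in MI than in sham. In sham hearts no member changed detectably.

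The calls of *Wnt9a*, *Fzd4* and *Fzd6* were lost without 9, 7 and 7 of the 12 libraries in turn (limma adjusted p up to 0.115, 0.0824 and 0.0844), and that of *Frzb* without sham vehicle replicate 1 (0.0505). *Fzd1*, *Lrp5*, *Lrp6* and *Sfrp1* were called whichever single library was left out. After median-ratio rescaling only *Fzd1* of the 8 was called, and with MI prednisone replicate 3 as the only treated infarcted library 0 were. Of all genes 20.7% were called with a more negative effect in MI.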

How the results depend on the processing

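Counts of called members are given here for MI against sham with vehicle (7 as reported), MI against sham with prednisone (2), prednisone against vehicle in MI (14) and the interaction (8); in sham, 0 were called under any alternative. Of all genes, 16%, 16.8%, 37.4% and 21.3% were called as reported. Rescaling by median ratios gave 6 in the third (28.2% of all genes) and 1 in the fourth (8.72%). The length correction gave 1 in the second (12.9%), 4 in the third (16.5%) and 1 in the fourth (2.04%). Centring gave 8 in the third (27.2%) and 1 in the fourth (8.77%). Fitting only the groups compared gave 0 in the first (0.0152%) and 3 in the third (6.14%). No filter gave 1 in the second (7.25%), and the most abundant transcript 4 in the first (4.72%). Without MI prednisone replicates 1 and 2 that group held 1 library, so only changes are given here. The median member then changed by -0.275, -0.799 and -0.896 in the last 3 comparisons, and the median gene by -0.129, -0.449 and -0.516. Leaving out each library in turn gave 4 to 10, 0 to 3, 11 to 14 and 4 to 10 called members. The shares of all genes called then ranged from 0.912% to 42.8%, 7.81% to 20%, 24.7% to 47.7% and 8.44% to 34.4%. The cause of these changes was not tested.

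Same-numbered libraries came from different animals. The mean correlation of same-numbered libraries between groups ranged from -0.373 to 0.114, with single values from -0.58 to 0.282. Differently numbered libraries were not compared, so these values cannot tell whether a number stands for a shared batch. The replicate block gave 5, 2, 11 and 6 called members, where 8.03%, 14.4%, 33.7% and 17.9% of all genes were called. In sham it gave 0, where 0.0532% were called. The replicate block with the length correction gave 2, 1, 4 and 1, where 0.588%, 7.9%, 11.5% and 0.924% of all genes were called.

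Of 64 pairs of a tested gene and a comparison that were not called, 31 changed sign under at least 1 alternative and 17 were called under at least 1. In MI with prednisone, *Fzd6* went to 0.022 (rescaling), 0.239 (length correction, with and without the block) and 0.018 (centring), *Wif1* to 0.121, 0.218 and 0.203 in the same order, *Wnt4* to 0.117 with the length correction, and *Wnt11* to 0.077 with the most abundant transcript. With the length correction, with and without the block, the interaction was 0.098 for *Fzd4* and 0.113 for *Fzd6*, and MI against sham with prednisone 0.125 for *Lrp5*. For *Lrp6* in MI against sham with vehicle it was -0.074 (rescaling), -0.041 (length correction, with and without the block) and -0.029 (centring). Without read counts, depth limits on the members below the filter cannot be stated.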

Other observations

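*Sfrp4*, an antagonist below the filter, was at 0.387, 0.284 and 0.0314 TPM in sham vehicle and 1.23, 0.460 and 1.60 TPM in MI vehicle, without overlap, and at 0.328, 0.578 and 0.219 TPM in MI prednisone. It was not tested.

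*Tcf7*, a TCF/LEF factor of the pathway lists that was called in no comparison, was at 282.2 TPM in MI vehicle replicate 3 and between 0.385 and 12.9 TPM in the other 11 libraries. It was chosen after its values were seen.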
